A study of Mus musculus with 4 samples.

Results

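The change that a photodynamic treatment left in mouse back skin was set against the change it left in mouse tail skin, gene by gene. For each gene the back response was the log2 level in treated back minus that in control back, and the tail response was the same difference for the tail. The difference of responses was the back response minus the tail response, so a value above 0 means that treated back moved up more, or down less, than treated tail. Genes entered when their probe was well above background and not saturated on all 4 arrays, which held for 11281 of the 16862 genes usable on the arrays. Of the 5581 other genes, 1704 were saturated on 1 or more arrays, 2283 were dim on 1 to 3 arrays and 1602 were dim on all 4 (a gene can be counted under more than 1 of these).

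The study measured total RNA of mice 48 h after treatment on one-colour microarrays and had 4 groups, with 1 array each. Control tail and control back were untreated. Treated tail and treated back received methyl aminolevulinate as a cream, 2.5 h of darkness and then illumination with red light (636 nm). The dose was 10 J/cm2 for tails, and backs received 2.5 J/cm2. Animals treated on the back were shaved, and shaving of the controls is not stated. Site, light dose and shaving therefore cannot be told apart in any difference between the responses. The design names 3 animals per group, without saying whether their RNA was pooled, and gives no strain, sex or age. The sample labels name tail skin whereas the extraction protocol names tail epidermis, so the layers sampled may differ between the sites. With 1 array per group there was no replicate error, no test was run, and a gene was called only where a difference reached 2-fold, a log2 value of 1.

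Methyl aminolevulinate is a precursor that cells turn, through the heme pathway, into protoporphyrin IX, a pigment that passes the energy of red light to oxygen. The singlet oxygen and other reactive oxygen species made this way oxidise lipids and proteins close to the pigment. Skin answers such injury with antioxidant enzymes controlled by the factor NRF2, with cytokines and recruited leukocytes, and with a wound programme in which basal keratinocytes divide and remodel their matrix.

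The arrays differed in brightness and each was scaled to the 75th percentile of its own probes, which was 7261 on control tail, 909 on treated tail, 1860 on control back and 1204 on treated back. A scaled level of 0 is that percentile. On the bright control tail array 1668 genes were saturated, against 330 to 666 on the others, and 978 genes were left out for saturation on control tail alone. The keratinocyte markers Krt5, Krt14, Krt1 and Krt10 were saturated on all 4 arrays. The hair shaft keratins Krt31, Krt33a and Krt35 were saturated on control tail, whereas in control and treated back their signals were 208 and 17.4, 1038 and 104, and 167 and 35.6. The scanner's error per spot gave a typical error of 0.204 for a response and 0.289 for the difference of responses. This error covers the spot and not the animals.

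The responses of the skins were weakly related across genes. Of the 11281 genes, 406 (3.6%) were higher in both treated skins, 124 (1.1%) were lower in both, 111 (0.984%) were higher in back and lower in tail, and 290 (2.57%) were lower in back and higher in tail. As shares of each list, the genes higher in both were 25.5% of those higher in back and 15.4% of those higher in tail, and the genes lower in both were 9.65% of those lower in back and 16.8% of those lower in tail. Neither response reached 2-fold in 5957 genes (52.8%). Back alone gave 1592 higher genes (14.1%) and 1285 lower genes (11.4%), and tail gave 2640 higher (23.4%) and 738 lower (6.54%). The difference of responses reached 2-fold upwards in 1752 genes (15.5%) and downwards in 3230 (28.6%), with a median over all genes of -0.20. Past 4-fold there were 472 and 1183 genes. Pearson's r between the responses was 0.0427 over these genes, which are not independent replicates and share the arrays.

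**Figure D1:**
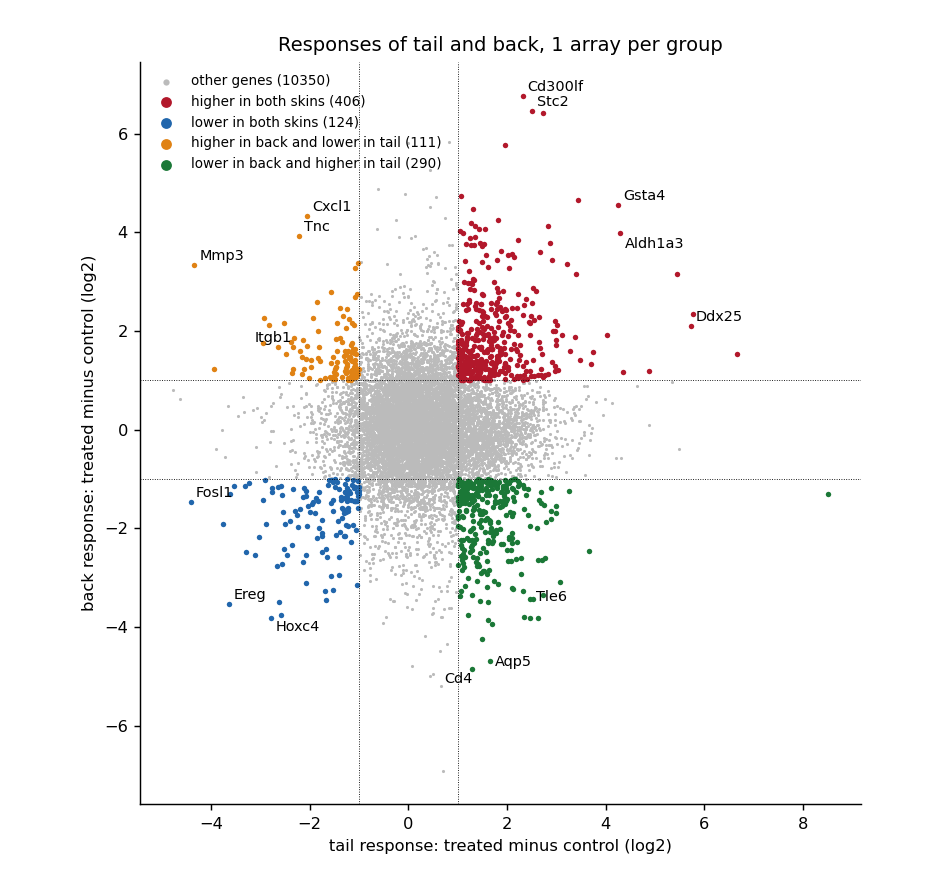
Each point is 1 of 11281 genes, with the tail response on the horizontal axis and the back response on the vertical axis, both in log2 units from 1 array per group. Dotted lines mark 2-fold; the 406, 124, 111 and 290 genes past it in both skins are coloured, and the cloud of the other genes shows no slope.

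The split of these calls depended on the scaling. Cyclic loess, which removes differences that follow brightness, gave 268 genes higher in both, 219 lower in both, 172 higher in back and lower in tail, and 192 lower in back and higher in tail. The share of differences of responses that pointed upwards was 35.2% when arrays were scaled to the 75th percentile. It was 50.9% under cyclic loess, 49.1% under quantile normalization and 20.8% when background was corrected by normexp. Scaling to spike-in probes gave 92.9%. Spike-in scaling added the same 1.61 to every difference of responses, so it turns the sign of smaller negative values by construction. It moved the median of the difference of responses over all genes from -0.20 to 1.41 and the median tail response from 0.27 to -1.80. All directions given here are relative to the 75th percentile of each array. Normexp correction left 37 genes higher in back and lower in tail, and it turned the sign of the difference of responses of 41 named genes, among them Kif11 (-0.63), Tgfb1 (-0.55), Ireb2 (-0.48), Mmp1a (-0.51), Inhba (-0.025), Stc2 (-0.38), Clec4d (-1.46), Clec4e (-1.36) and Pf4 (-0.43). Of the genes called in 1 of the 4 joint classes, cyclic loess kept 260 of 406, 122 of 124, 104 of 111 and 184 of 290 in the order above. Of 136 genes named here in a joint class, 117 kept it under cyclic loess, 91 under normexp and 52 with spike-in scaling. Only 85 of the 136 had a signal of at least 200 on every array. Genes named here that left their joint class after cyclic loess were Slc7a11, Gstp1, Awat2, Mmp9, Slc16a3, Psph, Trem2, Lama4, Ccl17, Ccl24 and Myh4, with tail responses then under 2-fold, Gsta1, Il18, Il1f6, Il1f8 and Klk14 likewise, and Aldh1a2, Ireb2 and Smad3, with back responses then under 2-fold.

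**Figure D2:**
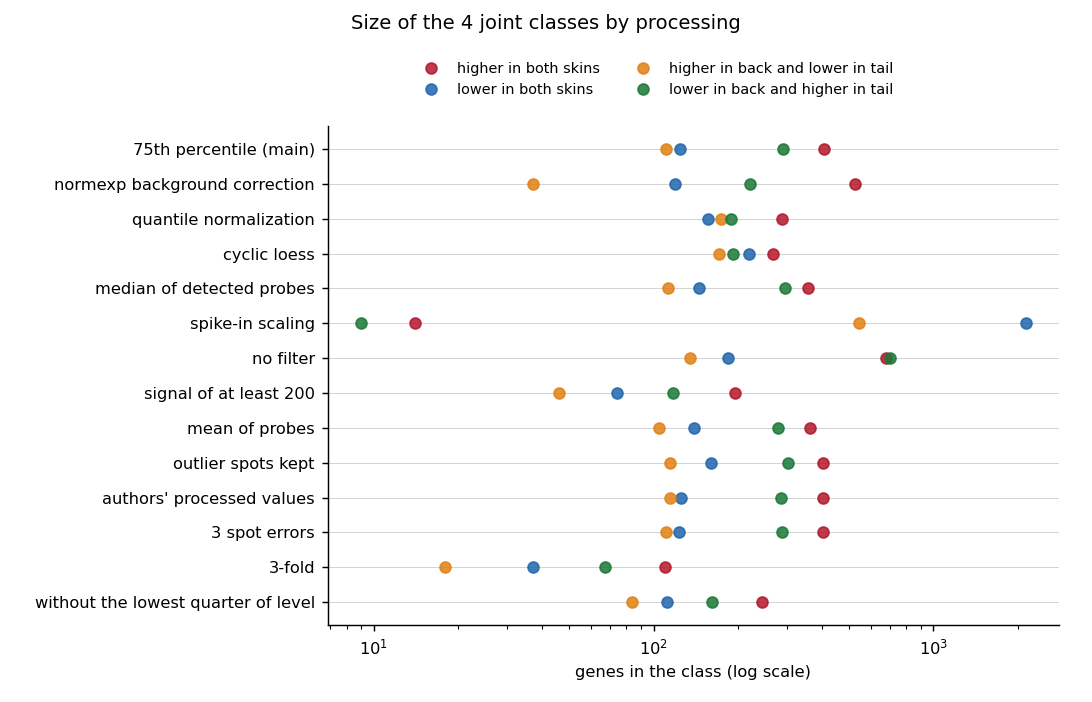
Number of genes in each of the 4 joint classes (horizontal axis, log scale) under the 75th percentile scaling and 13 other settings (vertical axis). The class higher in both skins runs from 14 genes with spike-in scaling to 680 with no filter, and the class higher in back and lower in tail from 18 at 3-fold to 542 with spike-in scaling.

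Among the genes higher in both skins was Gsta4, the glutathione transferase that conjugates aldehydes released by lipid peroxidation. Its scaled level was -3.04 in control tail and 1.21 in treated tail, and -1.28 in control back and 3.28 in treated back. Both treated arrays lay above both control arrays. The responses of 4.56 in back and 4.25 in tail differed by 0.31, and after cyclic loess by 0.27. Aldh1a3, which makes retinoic acid, went from -1.44 to 2.85 in tail and from 1.39 to 5.37 in back, and its treated levels were again above both controls. Its responses were 3.98 in back and 4.29 in tail. The complement component C3 had responses of 3.43 and 2.91, the crosslinking enzyme Tgm2 of 2.81 and 2.59, and the matrix protein Fbln1 of 2.00 and 2.14. These pairs differ by 0.52, 0.21 and -0.14. They were chosen for large responses in both skins, and some of them for like size, so nothing is read from their likeness. The desaturase family member Fads3 (3.78 and 2.88), the phosphatase Dusp3 (2.88 and 2.53), the protease Prss12 (2.52 and 2.35) and urate oxidase Uox (2.23 and 2.07) were also past 4-fold in both. The same held for Ccdc88b at 2.46 and 2.20. The germ cell helicase Ddx25 was an exception within the class, at 2.11 in back and 5.73 in tail.

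The oxidant defence genes were shared in part. Of 26 measured genes of the NRF2 and antioxidant list, 6 were higher in both skins and none lower in both. The shares over all genes were 3.6% and 1.1%. Nqo1, a quinone reductase, had responses of 1.43 in back and 1.48 in tail, the peroxidase Gpx2 of 1.63 and 2.19, and the NRF2 target Osgin1 of 2.03 and 1.27. The cystine transporter Slc7a11, at 2.04 and 1.00, and the transferase Gstp1, at 1.17 and 1.10, were closer to 2-fold in tail. The other members did not move together. Gsta1 was -1.86 in back and 1.31 in tail, the sulfiredoxin Srxn1 -2.30 and 0.94, catalase (Cat) -1.38 and -0.014, and glutathione reductase (Gsr) 2.12 and 0.89. The median difference of responses was -0.55 over the list, and 0.007 after cyclic loess. It was past 2-fold upwards in 3 members and downwards in 8, shares near the 15.5% and 28.6% of all genes. A further 15 of the 44 members on the array were saturated somewhere and have no value here. NRF2 itself (Nfe2l2) was at 0.44 and 0.35.

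Lipid droplet and sebaceous genes were also shared in part. Of 18 measured members, 5 were higher in both skins, beside 3.6% of all genes. They were the cholesterol-esterifying enzyme Soat1 (2.31 in back and 2.48 in tail), the elongase Elovl3 (1.64 and 2.66), the droplet proteins Cidea (1.82 and 2.99) and Plin2 (3.27 and 2.05), and the wax ester synthase Awat2 (1.28 and 1.41). Soat1 went from 0.52 to 2.83 in back and from -0.50 to 1.98 in tail. The list's median difference of responses was -1.08, with 9 members higher in tail and 5 in back, beside 23.4% and 14.1% of all genes. It was -0.48 after cyclic loess and 0.53 with spike-in scaling. The adipocyte regulator Pparg was at 0.74 in back and 2.41 in tail. In the sterol synthesis list 5 of 12 measured enzymes and regulators were lower in back and none in tail, beside 11.4% and 6.54% of all genes. A further 11 of its 23 members on the array were saturated somewhere and have no value here. Stard4 was at -1.86 and 0.46, and Tm7sf2 at -1.19 and 1.38. The list's median difference was -1.06, and 0.55 with spike-in scaling.

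Several myeloid genes were higher in both skins. Lyz2, the lysozyme of macrophages and neutrophils, went from 0.18 to 2.35 in back and from -3.80 to -1.36 in tail, responses of 2.17 and 2.44. The treated tail level stayed below the control back level. The myeloid receptor Cd300lf was at 6.77 and 2.32, and the lectin receptors Clec4d and Clec4e at 3.56 and 2.11 and at 4.25 and 1.83. Trem2, a receptor for lipids, was at 1.38 and 1.15, and Pf4, a chemokine of platelets, at 4.66 and 3.44. Of 15 macrophage markers 7 were higher in back and 9 in tail, and of 8 neutrophil markers 5 and 4. Over all genes 14.1% were higher in back and 23.4% in tail. Of the macrophage markers 4 were higher in both skins, 1 was higher in back and lower in tail, and 1 was the reverse. Of the neutrophil markers 3 were higher in both and 1 was lower in both. These classes held 3.6%, 0.984%, 2.57% and 1.1% of all genes, in the order higher in both, the 2 opposite classes and lower in both. The median differences of responses of the macrophage and neutrophil lists were -0.27 and 0.64, but -2.74 and -2.12 under normexp. Levels in bulk tissue cannot tell more cells of a type from more RNA per cell. A further 9 neutrophil markers were dim on some array, and 12 of its 19 members were well above background on each control array, 13 on treated tail and 16 on treated back. The summed signal of the list was 0.0322% of all gene signal on control tail, 0.179% on treated tail, 0.0713% on control back and 0.17% on treated back. This sum includes S100a8 and S100a9, which activated keratinocytes also make and which were saturated on both treated arrays, the latter on control back too.

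The genes lower in both skins included growth factor, cytokine and early response genes. The EGF receptor ligand Ereg stood at 2.31 in control tail and -1.32 in treated tail, and at 2.24 in control back and -1.29 in treated back. The controls were nearly equal and so were the treated skins, with responses of -3.53 in back and -3.64 in tail. The clock repressor Nr1d1 had responses of -2.34 and -2.36, a difference of 0.020. Ereg and Nr1d1 were chosen for large responses of like size in both skins, so nothing is read from their likeness. The growth factor binding protein Igfbp3 was at -2.48 and -3.29, the homeobox genes Hoxc4 and Gsx1 at -3.83 and -2.78 and at -3.50 and -2.63, and the adhesion molecule Sdk2 at -3.77 and -2.59. Kctd12 (-3.11 and -2.08), the semaphorin Sema4d (-1.92 and -2.50) and the nuclease Dnase1l3 (-2.20 and -1.86) belonged to the same class. With spike-in scaling the differences of responses of Hoxc4, Sdk2 and Kctd12 turned sign, to 0.56, 0.43 and 0.58.

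**Figure D3:**
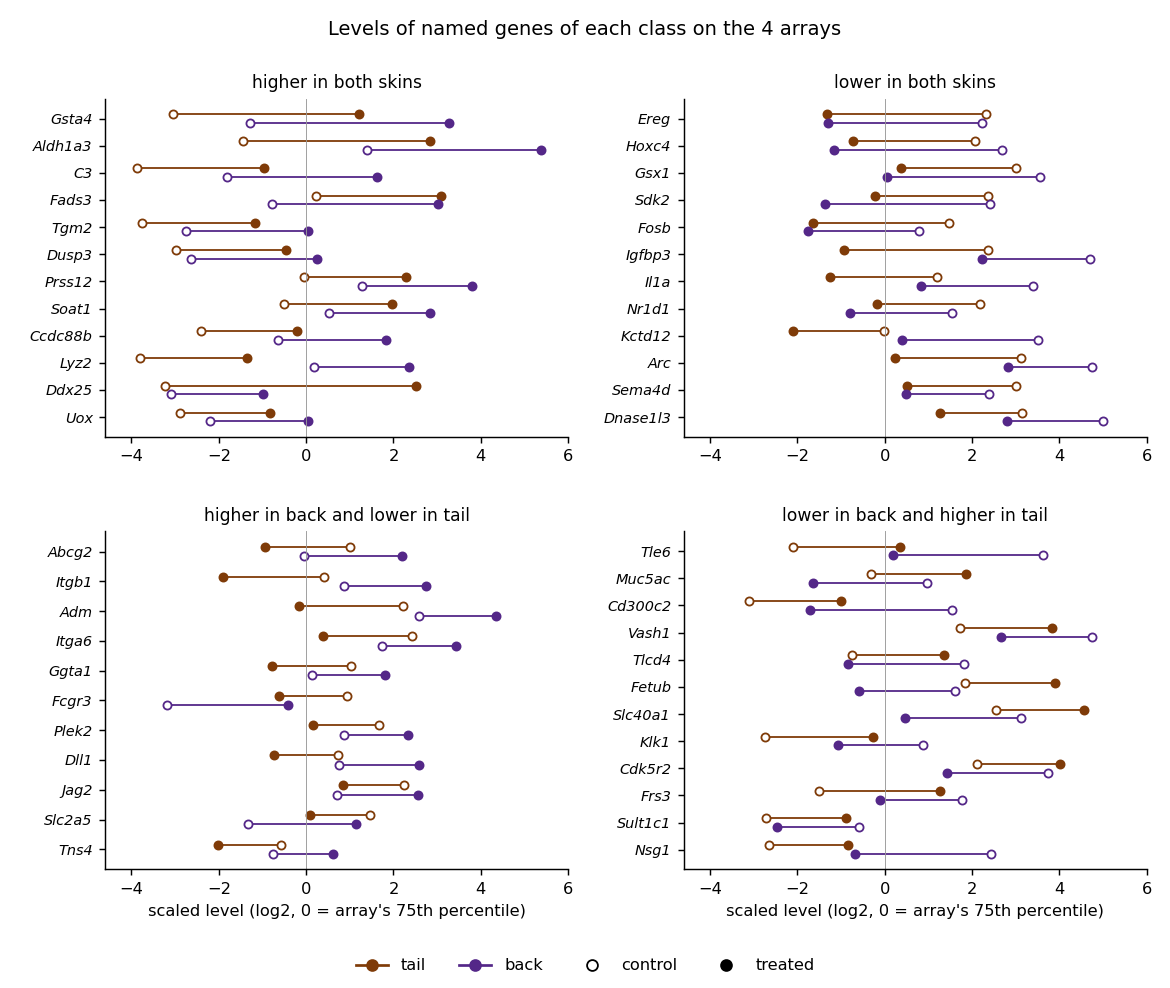
Scaled level (log2, 0 is the array's 75th percentile) of the genes of each joint class with the largest smaller response that are named here, with open circles for control and filled circles for treated arrays, tail in brown and back in purple, 1 array each. In the panel higher in back and lower in tail the lines of each gene run in opposite directions, as for Itgb1 from 0.42 to -1.90 in tail and from 0.87 to 2.74 in back.

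Immediate early genes, which cells switch on within minutes of a stimulus, were the list with most members in that class, 5 of 12 measured. The class lower in both skins held 1.1% of all genes. The AP-1 subunits Fosb and Fosl1 were at -2.55 in back and -3.12 in tail and at -1.47 and -4.41, the nuclear receptor Nr4a2 at -1.95 and -2.06, Arc at -1.92 and -2.89, and Mafk, a small MAF partner of NRF2, at -1.31 and -1.01. The list medians were -1.19 in back and -0.96 in tail, but members differed, with Egr4 at -0.35 and -3.09 and Dusp2 at -0.73 and 1.98. Saturation kept 17 of its 30 members without a value. In the NF-kB list 3 of 19 were lower in both, namely the subunit Rel (-1.92 and -3.75), the kinase Ripk2 (-2.43 and -2.53) and the inhibitor Irak3 (-2.17 and -1.75). Other NF-kB genes were lower only in tail, such as the adhesion molecule Icam1 at 0.47 in back and -3.67 in tail. The prostaglandin receptor Ptger4, at -1.14 and -3.54, and the ligand Bmp2, at -1.38 and -1.87, were also lower in both.

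The cytokine Il1a, an alarm signal stored in keratinocytes, was lower in both. It was likewise chosen for responses of like size, so nothing is read from their likeness. It went from 3.39 to 0.84 in back and from 1.19 to -1.26 in tail, responses of -2.55 and -2.45. RefSeq's promoter table (assembly GRCm38.p6), which gives 300 bases around a start site, held windows for 8991 of the 11281 genes. Both strands were searched for AP-1 (TGACTCA), CRE (TGACGTCA), the antioxidant response element core (TGACNNNGC), E2F (TTTNGCGC), the cell cycle gene homology region CHR (TTTGAA) and the CCAAT box (CCAAT). The AP-1 and antioxidant patterns can share bases and did so in 115 of 27025 promoters. An AP-1 match was present in 5.17% of all promoters and 3.4% of those of the measured genes, and in 9 of 95 (9.47%) of the genes lower in both, against 5.23% of those higher in both, 4.26% of those higher in back and lower in tail, and 7.27% of those lower in back and higher in tail. A CRE match was present in 1.88% of all promoters and 2.89% of those of the measured genes. Among the genes lower in both, 5 of 95 (5.26%) held it. The antioxidant pattern was present in 12.5% of all promoters, 14.1% of those of the measured genes and 6 of 22 (27.3%) of the NRF2 list, and also in 3 of 8 (37.5%) immediate early and 8 of 35 (22.9%) DNA replication promoters. AP-1 was present in 5 of 22 (22.7%) of the NRF2 list. A match is a description of letters and not a tested site. The 100 bases before the Il1a start (chr2:129309973-129310072, minus strand) are shown because this gene carries a match 12 bases before its start, in capitals.
Il1a: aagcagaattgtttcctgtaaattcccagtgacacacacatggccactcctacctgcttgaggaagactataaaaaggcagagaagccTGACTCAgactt

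Adhesion genes of basal keratinocytes moved in opposite directions. Of 9 measured basal epidermis genes, 5 were higher in back and lower in tail, beside 0.984% of all genes. Among them were the integrin subunits Itgb1, Itga6 and Itga3, which anchor the basal layer to its basement membrane, and the laminin chain Lamb3. Itgb1 went from 0.87 to 2.74 in back and from 0.42 to -1.90 in tail. The control levels differed by less than 2-fold between the sites, and the treated levels lay on either side of both. Its difference of responses was 4.18. Itga6 had responses of 1.69 in back and -2.05 in tail, Itga3 of 2.69 and -1.08, and Lamb3 of 1.78 and -1.34. Plectin (Plec) was at 0.45 and -1.38, P-cadherin (Cdh3) at 1.37 and -0.97, and the linker Dst at -0.24 and -0.072. The medians were 1.69 in back, -1.34 in tail and 3.12 for the difference of responses, which was 3.31 after cyclic loess and 0.79 when dim and saturated members were let in. The latter were 7 further members, all saturated somewhere, among them Krt5, Krt14 and Trp63. In the wider family of laminins and integrins, Lamb1 (1.08 and -1.51) was also opposite, whereas Lamc3 (1.19 and 2.38) and Lama4 (1.39 and 1.40) were higher in both.

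Of 16 genes of the list of wound matrix and the plasminogen system, 3 were higher in back and lower in tail. The share over all genes was 0.984%. The difference of responses of the list was past 2-fold upwards in 9 genes and downwards in 1, beside 15.5% and 28.6% of all genes. Tenascin C (Tnc), a matrix glycoprotein of healing wounds, went from -1.54 to 2.38 in back and from -0.97 to -3.18 in tail, a difference of responses of 6.14. Thrombospondin 2 (Thbs2) was at 2.16 in back and -2.53 in tail, and the hyaluronan synthase Has2 at 1.68 and -2.34. Osteopontin (Spp1) was at 4.87 and -0.62, higher in back with no 2-fold change in tail. The activin subunit Inhba, at 3.73 and 1.34, was higher in both, and Has1, at -1.04 and -1.02, was lower in both. Fibronectin (Fn1), at 0.65 and 1.62, was higher only in tail. The medians were 1.30 in back and -0.56 in tail. The median difference of 2.46 was 0.26 under normexp, 0.61 with signals of at least 200 and 1.42 when dim and saturated members were let in.

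The metalloproteinases, which cut matrix, held the named gene with the largest difference of responses. Stromelysin 1 (Mmp3) stood at 1.65 in control tail, -2.69 in treated tail, -0.046 in control back and 3.29 in treated back. Its responses of 3.34 in back and -4.34 in tail gave a difference of 7.68. Stromelysin 2 (Mmp10) was at 1.68 and -2.64, and the collagenase Mmp1a at 4.51 and 0.43. Gelatinase B (Mmp9) was higher in both at 1.56 and 1.02. Inhibitors and other members lay higher in tail, with Timp1 at 0.50 and 1.14, Timp4 at -0.57 and 2.74, and Adamts4 at 0.15 and 2.87. The median difference over the 18 members was -0.78, with 6 past 2-fold upwards and 7 downwards, beside 15.5% and 28.6% of all genes. It was -0.38 after cyclic loess and 0.43 when dim and saturated members were let in. Of 14 members with a promoter window, 4 (28.6%) held an AP-1 match, beside 5.17% of all promoters: Mmp1a, Mmp3, Mmp7 and Mmp10. Mmp7 was at 0.58 in back and 1.54 in tail. The 100 bases before the starts of Mmp3 (chr9:7445722-7445821), Mmp10 (chr9:7502242-7502341) and Mmp1a (chr9:7464041-7464140), all on the plus strand, are shown because these are the members with the highest back responses of the list that carry the match. Capitals mark it, here as the reverse strand letters TGAGTCA, 46, 63 and 73 bases before the start.
Mmp3: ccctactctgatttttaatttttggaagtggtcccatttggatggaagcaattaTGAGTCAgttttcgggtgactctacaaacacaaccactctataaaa
Mmp10: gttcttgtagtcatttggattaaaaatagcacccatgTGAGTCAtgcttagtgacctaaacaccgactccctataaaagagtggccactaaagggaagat
Mmp1a: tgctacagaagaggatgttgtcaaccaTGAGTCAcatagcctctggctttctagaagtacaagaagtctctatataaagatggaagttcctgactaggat

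Other genes higher in back and lower in tail had varied roles. Adrenomedullin (Adm), a vasoactive peptide induced by low oxygen, went from 2.59 to 4.36 in back and from 2.23 to -0.16 in tail. The angiogenic factor Vegfa (1.62 in back and -1.08 in tail) and the glycolysis regulator Pfkfb3 (1.24 and -1.49) were in the same class, and the lactate exporter Slc16a3 was higher in both at 4.06 and 1.43. Over 10 measured glycolysis and hypoxia genes the median difference of responses was 1.11, with 7 past 2-fold upwards and none downwards. It was -0.46 over 22 genes when the dim and saturated members were let in. Of all genes 15.5% were past 2-fold upwards and 28.6% downwards. The Notch ligands Dll1 (1.83 and -1.46) and Jag2 (1.85 and -1.38), the fructose transporter Slc2a5 (2.46 and -1.38), the focal adhesion protein Tns4 (1.38 and -1.44), Plek2 (1.46 and -1.53), Bcar3 (2.75 and -1.05) and the sugar transferase Ggta1 (1.68 and -1.82) completed the named members. The Fc receptor Fcgr3, at 2.79 and -1.57, started from a control back level of -3.19 and a control tail level of 0.94, and treated back at -0.41 lay close to treated tail at -0.63. The cAMP-activated exchange factor Rapgef3 had a difference of 4.84 that came from back alone, at 4.77 against -0.072 in tail.

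Many division genes were higher in back and few reached 2-fold in tail. Of 37 measured mitosis genes 27 were higher in back and none lower, beside 14.1% and 11.4% of all genes. In tail 3 were higher and 2 lower, beside 23.4% and 6.54% of all genes. The kinase Cdk1 with its cyclin Ccnb1 had back responses of 1.68 and 1.55 and tail responses of -0.94 and -0.87. The spindle kinases Bub1, Plk1 and Aurka were at 2.13, 1.99 and 1.91 in back and at 0.15, 0.52 and 0.98 in tail. The spindle motor Kif11 and the cytokinesis scaffold Anln were opposite, at 1.18 and -1.51 and at 1.60 and -2.20. The kinesin Kif22 was an exception at 0.41 in back and 3.34 in tail. The median difference of responses was 1.15 (1.32 after cyclic loess), with 20 members past 2-fold upwards and 1 downwards. For 42 DNA replication genes it was 1.09 (1.31 after cyclic loess), with 23 and 1. Over all genes 15.5% were past 2-fold upwards and 28.6% downwards. The S phase factor E2f1 was at 2.69 in back and -0.10 in tail, thymidine kinase Tk1 at 2.25 and 0.37, the helicase subunit Mcm5 at 1.73 and -0.32, and the clamp loader subunit Rfc3 at 1.10 and -1.05.

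Mitosis promoters shared letters. Of the 30 members with a window, 22 (73.3%) held a CHR match and 23 (76.7%) a CCAAT match, beside 18.1% and 37.9% of all promoters. The E2F pattern was found in 8 of 35 (22.9%) DNA replication promoters, beside 1.38% of all and 2.25% of those of the measured genes. Kif11 (chr19:37376282-37376381, plus strand) and Cdk1 (chr10:69352913-69353012, minus strand) are shown as a member that was opposite in the tail and a central kinase of the list. Capitals mark CHR (TTTGAA, or TTCAAA on the other strand) and CCAAT (here as ATTGG). The matches begin 45 and 19 bases before the Kif11 start and 80, 71, 48 and 15 bases before the Cdk1 start.
Kif11: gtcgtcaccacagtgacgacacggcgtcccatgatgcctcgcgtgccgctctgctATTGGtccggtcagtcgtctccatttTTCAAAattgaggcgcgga
Cdk1: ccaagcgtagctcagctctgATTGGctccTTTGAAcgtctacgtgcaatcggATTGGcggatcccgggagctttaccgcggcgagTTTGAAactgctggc

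Genes of the amino acid and integrated stress response controlled by ATF4 were mainly higher in back. Of 18 measured members 12 were higher in back and 6 in tail, beside 14.1% and 23.4% of all genes. The median difference of responses was 1.39 (1.67 after cyclic loess, and 0.58 over 24 genes when saturated members were let in). The secreted glycoprotein Stc2 went from -5.73 to 0.73 in back and from -7.51 to -5.01 in tail, responses of 6.46 and 2.50. Both tail levels lay far below the 75th percentile, so its tail response rests on dim signals. The hormone Fgf21 (4.18 and 1.27), cystathionine gamma-lyase Cth (3.79 and 1.45) and the serine enzyme Psph (1.24 and 1.46) were also higher in both. The stress factor Ddit3 was opposite at 1.17 and -1.11. Atf4 itself was at -0.45 and -0.27.

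Heme and iron genes, whose pathway makes the photosensitiser, had medians of 0.28 in back and 0.35 in tail and contained genes of opposite sign. The porphyrin exporter Abcg2 went from -0.046 to 2.21 in back and from 1.00 to -0.94 in tail. The iron exporter Slc40a1 did the reverse, from 3.13 to 0.47 in back and from 2.55 to 4.57 in tail. For both genes the treated levels lay further apart than the control levels, and on either side of them. The peptide transporter Slc15a1, a known carrier of aminolevulinic acid, was at -1.57 and 1.85, and the iron regulatory protein Ireb2 at 1.01 and -1.22. The synthesis enzymes Alad, Cpox, Ppox and Fech stayed within 2-fold in both skins, and Alas1, the first enzyme, was at -1.41 and -0.99. Heme oxygenase 2 (Hmox2) was at -0.25 and 0.74.

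Genes lower in back and higher in tail were more numerous but dimmer as a class, with a median of 99.1 for the lowest signal over the arrays, against 145 to 301 for the other joint classes. The water channel Aqp5, known from sweat and other exocrine glands, went from 3.11 to -1.58 in back and from -0.27 to 1.39 in tail, a difference of -6.34. The corepressor family member Tle6 went from 3.62 to 0.19 in back and from -2.11 to 0.35 in tail, so the treated levels met between widely spaced controls. The neuronal vesicle protein Nsg1 gave the same picture, at 2.44 and -0.69 in back and at -2.64 and -0.83 in tail. The myeloid receptor Cd300c2 had responses of -3.24 in back and 2.12 in tail. The mucin Muc5ac had responses of -2.62 in back and 2.18 in tail, the vasohibin Vash1 of -2.10 and 2.10, the fetuin Fetub of -2.19 and 2.05, and the CDK5 activator Cdk5r2 of -2.31 and 1.91. Tlcd4 (-2.66 and 2.09), the FGF receptor adaptor Frs3 (-1.88 and 2.78), the sulfotransferase Sult1c1 (-1.88 and 1.81) and Unc93a (-3.95 and 1.69) were in the same class. The difference of -5.43 for Plaat1 came from back alone (-4.99 and 0.44), and that of -4.87 for the ceramide enzyme Degs2 from tail alone (-0.57 and 4.31).

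The gap between the skins was counted in each class before and after treatment. In the class lower in back and higher in tail, 221 of 290 genes were at least 2-fold higher in control back than in control tail, and after treatment 175 were at least 2-fold lower in treated back than in treated tail. In the class higher in back and lower in tail, 56 of 111 genes were at least 2-fold lower in control back, and 87 were at least 2-fold higher in treated back. A class defined on the control arrays fixes part of the control spacing, so nothing is read from these counts. Over all 11281 genes the gap between the skins had an SD of 1.34 without and 1.37 with treatment, and 42.9% and 36% of genes were at least 2-fold apart.

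Inflammatory signals were split. The neutrophil attractant Cxcl1 went from -1.92 to 2.42 in back and from -3.69 to -5.74 in tail, a difference of responses of 6.39. The chemokines Ccl3 and Ccl4 were higher in back alone, at 5.26 and 3.91 against 0.44 and -0.20 in tail. Tnf was lower in tail alone, at 0.81 in back and -4.77 in tail, and Irf1, an interferon-induced factor, at 0.39 and -3.15. Interleukin 18 (Il18) was opposite at -2.23 and 1.23. Il19 (2.55 and 1.78), Ccl17 (1.96 and 1.19) and Ccl24 (1.33 and 1.29) were higher in both. Oncostatin M (Osm) and Il17f were higher in tail alone, at 3.36 and 2.63 against 0.33 and 0.36 in back. The keratinocyte cytokine Il24 was at 5.83 in back and 0.82 in tail, and Il1f6 and Il1f8, older names of IL-36 alpha and beta, were at -3.85 and 1.60 and at -2.30 and 1.32. Of 22 interferon response genes 7 were lower in back and 5 higher in tail, beside 11.4% and 23.4% of all genes. Their median difference was -1.13, with 12 members past 2-fold downwards and 1 upwards, beside 28.6% and 15.5% of all genes. It was -2.38 under normexp and 0.48 with spike-in scaling.

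Several lymphocyte and Langerhans cell markers were lower in back. In back, 6 of 15 markers of T and NK cells fell past 2-fold and 1 rose, beside 11.4% and 14.1% of all genes. In tail 6 rose and none fell, beside 23.4% and 6.54% of all genes. Cd4 went from 1.51 to -3.33 in back and from -0.66 to 0.63 in tail, Cd8a had responses of -1.52 and 2.75, and the granzyme Gzmc of -2.07 and 1.55. The signal receptor genes Cd3d and Cd3g were at -0.97 and 0.59 and at -1.41 and 0.43. The median difference was -1.56, -0.87 after cyclic loess and 0.05 with spike-in scaling, and 11 members were past 2-fold downwards, beside 28.6% of all genes. The list made up 0.00406% to 0.00933% of all gene signal on the 4 arrays, with 15 to 17 of its 20 members well above background. Of 13 Langerhans and dendritic markers, 8 were lower in back and 2 in tail, beside 11.4% and 6.54% of all genes. The lectin Cd207 (-1.67 and -2.54) and the maturation marker Cd83 (-1.19 and -2.76) were lower in both skins. The class II genes H2-Aa, H2-Ab1 and Cd74 were lower in back alone, at -1.25, -1.20 and -1.55 against -0.81, -0.30 and -0.59 in tail.

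Many hair and gland genes were higher in tail. Of 8 measured hair matrix and shaft genes, 5 were higher in tail and 3 lower in back, beside 23.4% and 11.4% of all genes. Of 264 measured olfactory receptors, described below, 190 were higher in tail. The median difference of the hair matrix and shaft list was -2.64 (-2.47 after cyclic loess). The homeobox genes Msx1 and Msx2, which act in the hair matrix, were opposite at -2.38 and 1.28 and at -1.15 and 1.45, whereas the Wnt effector Lef1 was higher in both at 1.52 and 2.26. On the arrays the hair list made up 0.386% of gene signal in control tail, 1.15% in treated tail, 0.0425% in control back and 0.00585% in treated back, values held down by 13 and 12 saturated members in tail. Of 13 hair follicle stem cell genes 7 were higher in tail and 2 in back, beside 23.4% and 14.1% of all genes. Sox9 was at 0.0060 in back and 2.33 in tail and Lgr5 at -0.34 and 1.52. The median difference of this list was -1.15, or 0.46 with spike-in scaling. All 10 measured kallikreins, a family of serine proteases of skin and glands, lay at least 2-fold lower in back response than in tail response, beside 28.6% of all genes. Their median difference was -2.14, and 9 lay at least 2-fold lower after cyclic loess. Klk1 went from 0.87 to -1.08 in back and from -2.73 to -0.26 in tail, and Klk14 was at -1.39 and 1.29. Of 28 collagens 13 were higher and 5 lower in tail, and 2 were higher and 5 lower in back, beside 23.4%, 6.54%, 14.1% and 11.4% of all genes. Their difference of responses was past 2-fold upwards in 6 and downwards in 14, beside 15.5% and 28.6% of all genes. The fibrillar chains Col1a1 and Col3a1 were at -1.29 and 1.09 and at -0.44 and 1.78, the hypertrophic cartilage collagen Col10a1 at -2.65 and 2.63, and the basement membrane chain Col4a5 was lower in both at -1.61 and -2.20. Their median difference was -1.01, -0.48 after cyclic loess and 0.60 with spike-in scaling. Cornified envelope genes could hardly be compared, since 23 of 26 on the array were saturated somewhere. The 3 with a value, Ivl, Tgm5 and Blmh, were lower in back at -1.98, -1.36 and -1.45 and stood at 0.088, 0.81 and 0.98 in tail.

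Wound keratins and simple-epithelial keratins differed between the sites. Krt6b, induced in wounded epidermis, was at 1.58 in back and 3.74 in tail, and Krt18 and Krt8, partners in simple epithelia, at 5.78 and 1.95 and at 3.29 and 0.94. Only 7 of 39 keratins were measured, because 23 were saturated and 9 dim somewhere.

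Markers of muscle, fat, vessels and blood were more often higher in tail than in back. Of 20 skeletal muscle genes 14 were higher in tail and 7 in back, and of 9 adipocyte genes 7 and 3. Of 11 endothelial genes 7 and 3 were, and of 5 red blood cell genes 4 and 2, beside 23.4% and 14.1% of all genes. The tail medians of these lists were 1.33, 1.65, 1.54 and 2.02, beside 0.27 over all genes, and their median differences of responses were -1.52, -1.33, -1.66 and -1.69. The olfactory receptors described below, not known as skin genes, had a like tail median of 1.32 and a median difference of -1.68. With spike-in scaling the muscle and adipocyte differences were 0.09 and 0.28. Muscle and endothelial genes were 0.00369% to 0.00809% and 0.00152% to 0.00233% of all gene signal. The myosin chain Myh4 had signals of 62.6, 26.2, 22.3 and 32.5 on control tail, treated tail, control back and treated back, and its responses were 1.17 and 1.74. The globins Hbb-bt and Hba-a1 were brighter, with responses of 1.17 and 4.35 and of 0.18 and 3.45. The aquaporin Aqp1, found in red cells and small vessels, was at 3.36 and 3.22. The part of these cells in the shared and opposite responses was not tested.

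**Figure D4:**
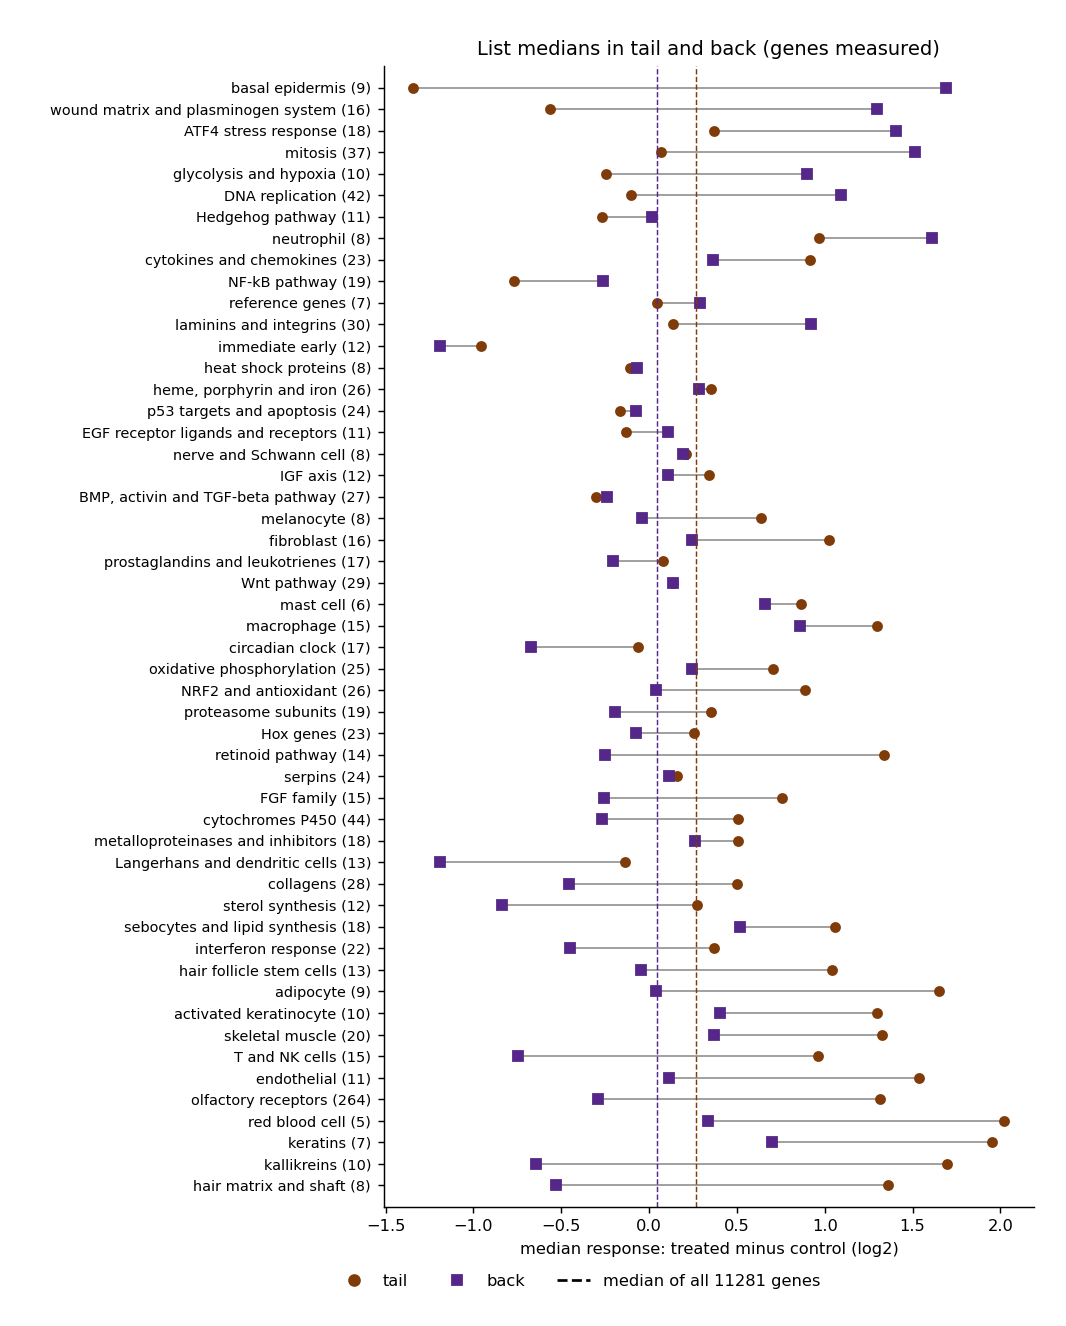
Median response (log2) in tail (circles) and back (squares) of each gene list with 5 or more genes measured on all 4 arrays, with the number of genes in brackets and lists ordered by their median difference of responses. Dashed lines mark the medians over all 11281 genes, 0.27 in tail and 0.05 in back; basal epidermis lies at -1.34 and 1.69, and hair matrix and shaft at 1.36 and -0.53.

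Growth factor, Wnt and clock genes fell into every joint class. The neuregulin Nrg1 was higher in back alone (4.07 and -0.63), as was the Wnt ligand Wnt3a (3.67 and 0.29). The Wnt inhibitor Wif1 was higher in back and lower in tail (1.40 and -1.80), and the Wnt inhibitor Sfrp4 the reverse (-2.60 and 1.39). Transforming growth factor beta 1 (Tgfb1) and its effector Smad3 were opposite at 1.14 and -1.02 and at 1.00 and -1.78, the latter at the limit in back. The hair cycle factor Fgf5 was at -1.81 and 2.90, and Fgf1 was lower in both at -2.18 and -3.04. The retinal dehydrogenase Aldh1a2 was at -1.01 and 2.07. Among clock genes the repressor Bhlhe40 was opposite at 1.34 and -1.57 and Per2 was at -0.41 and 2.05.

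Larger back responses were shared more often when they were upward. Of the 1592 genes at least 2-fold higher in back, 25.5% were higher in tail, of 323 genes past 4-fold 40.2%, of 87 past 8-fold 52.9%, and of 26 past 16-fold 57.7%. After cyclic loess these shares were 17.3%, 30.7%, 38.6% and 42.3%. Over all genes 23.4% were higher in tail. For downward back responses the shares depended on the scaling. Of 1285, 320 and 79 genes at least 2-fold, 4-fold and 8-fold lower in back, 9.65%, 10.6% and 11.4% were lower in tail, and 22.6%, 30.6% and 34.2% were higher in tail, beside 6.54% and 23.4% of all genes. After cyclic loess 16.9%, 17.1% and 13.8% were lower in tail and 14.8%, 20.8% and 25% higher. With that scaling 1290 of all 11281 genes were lower in tail and 1625 higher. Of 11 genes past 16-fold none was lower in tail and 3 were higher. Read from the tail, 16.8% of 738 genes 2-fold lower there were also lower in back. Of 128, 25 and 4 genes 4-fold, 8-fold and 16-fold lower, 34.4%, 40% and 25% were, beside 11.4% of all genes. Of 2640, 617 and 82 genes 2-fold, 4-fold and 8-fold higher in tail, 15.4%, 15.7% and 24.4% were also higher in back. Of 17 genes 16-fold higher in tail 52.9% were, beside 14.1% of all genes.

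**Figure D5:**
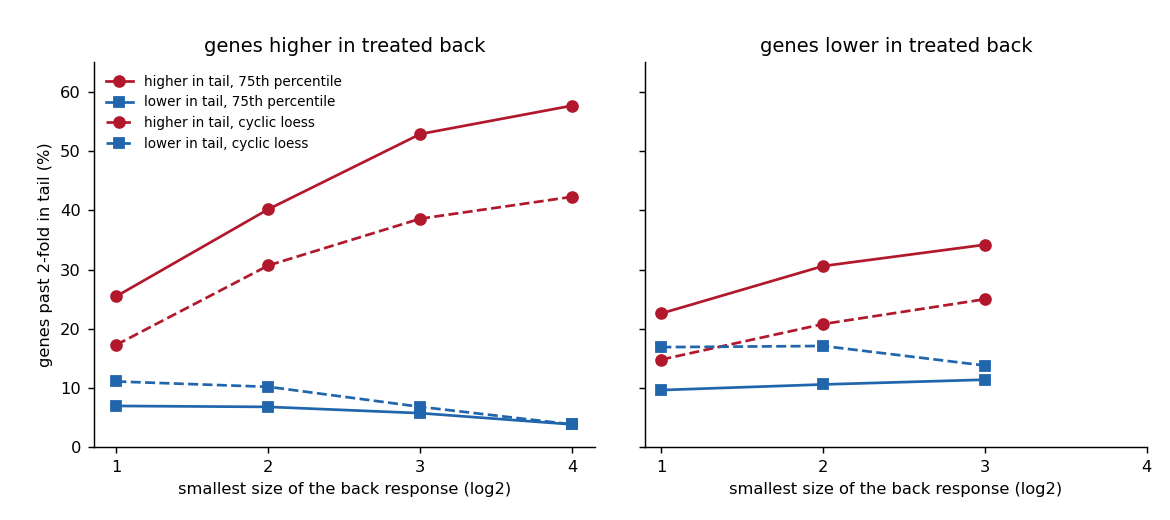
Share of genes past 2-fold in tail (vertical axis, percent) among genes higher (left) or lower (right) in treated back by at least the log2 size on the horizontal axis; points with fewer than 20 genes are left out. Circles are genes higher and squares genes lower in tail, with solid lines for 75th percentile scaling and dashed lines for cyclic loess; at left the solid circles run from 25.5% to 57.7%.

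Brightness moved with the tail response. In the 2821 dimmest genes by mean level, the lowest of 4 equal groups, the median tail response was 1.02 and the median back response -0.04, so the median difference was -1.09, and -0.46 after cyclic loess. In the groups of increasing level it was 0.12, 0.14 and -0.29. The dimmest group held 128 of the 290 genes lower in back and higher in tail, and 162 of the 406 genes higher in both, but 12 of the 124 genes lower in both and 27 of the 111 genes higher in back and lower in tail. Olfactory receptors, which are not known as skin genes, give the same picture. Of 264 measured, 190 were higher in tail, 219 had a difference of responses past 2-fold downwards and 25 were lower in back and higher in tail. Over all genes these shares were 23.4%, 28.6% and 2.57%. The median difference of these receptors was -1.68 (-1.08 after cyclic loess). The part of background signal in these values was not tested.

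Where a gene had further probes, most gave the direction of its main probe. For 3569 of the 11281 genes 4450 further probes were measured, and the other genes had none. The difference of responses had the sign of the gene's main probe in 74.2% of the further probes. Among the 1528 further probes of genes whose main probe was past 2-fold, it had that sign in 87.5%. For genes higher in both, 70 of 108 further probes had both signs as the main probe, for genes lower in both 44 of 54, for genes higher in back and lower in tail 28 of 40, and for genes lower in back and higher in tail 30 of 47. Many calls lay close to the limit, since in 44.3%, 40.3%, 61.3% and 47.6% of the 4 classes the smaller response was under 1.25 on the log2 scale.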

How the data were processed

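Per the labels' protocols, RNA (200 ng) was labelled with Cy3 and hybridised to 4 one-colour Agilent mouse arrays, 1 per group, on 1 slide per the file headers. The submitters' processing notes name Agilent Feature Extraction 10.7 and the file headers 10.5.1.1 and the build mm8. The deposited intensity values are background-subtracted signals per spot (gProcessedSignal), per the file headers. The authors' deposited log2 table matched them within 0.001 for 99.9% of probes after removing a constant per array.

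Control and outlier spots were left out, repeated spots averaged, and log2 signals reduced by each array's 75th percentile. The brightest usable probe stood for a gene. Accessions matched RefSeq symbols (GRCm38.p6) for 24375 of 41174 probes. The sorting of genes into classes was checked on simulated data, and no test of significance was run. Some named genes were taken among genes with every signal at least 200 and further probes of the same signs. These were the 12 per joint class whose smaller response was largest and the 8 each way with the largest difference of responses. The 12 least different among those past 4-fold in both were taken under the same conditions. From each list, up to 6 by size of difference and all members of a joint class were taken without the signal and probe conditions. Others were chosen after their values were seen. Clone names were skipped. A few genes that the rule names are not reported here. The members and gene lists were chosen with earlier results of these data known. Python 3.11.15, pandas 2.3.3, R 4.3.3 and limma 3.58.1 were used.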

Additional observations from a re-analysis of the deposited data

Results flagged for a closer look

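The following had back and tail responses past 2-fold in opposite directions. Each rests on 1 array per group, the difference was not tested, and site, dose and shaving cannot be told apart. The tail response of Cxcl1 rests on dim signals. Values are the difference of responses.

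Genes higher in back and lower in tail were Mmp3 (7.68), Cxcl1 (6.39), Tnc (6.14), Edn2 (5.16), Thbs2 (4.69), Fcgr3 (4.36), Mmp10 (4.31), Abcg2 (4.19), Itgb1 (4.18), Adm (4.16), Has2 (4.02) and Slc2a5 (3.84). So were Anln (3.80), Bcar3 (3.79), Itga3 (3.77), Itga6 (3.74), Ggta1 (3.50), Dll1 (3.29), Jag2 (3.23), Wif1 (3.19), Lamb3 (3.12), Plek2 (2.99), Bhlhe40 (2.92) and Tns4 (2.82). So were Smad3 (2.79), Pfkfb3 (2.73), Vegfa (2.71), Kif11 (2.69), Lamb1 (2.59), Ddit3 (2.27), Ireb2 (2.23), Tgfb1 (2.15) and Rfc3 (2.15).

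Genes lower in back and higher in tail were Aqp5 (-6.34), Cd4 (-6.13), Tle6 (-5.90), Unc93a (-5.64), Il1f6 (-5.46), Cd300c2 (-5.36), Col10a1 (-5.28), Nsg1 (-4.94), Muc5ac (-4.80), Tlcd4 (-4.75), Fgf5 (-4.71) and Slc40a1 (-4.68). So were Frs3 (-4.66), Klk1 (-4.42), Cd8a (-4.27), Fetub (-4.23), Cdk5r2 (-4.22), Vash1 (-4.20), Sfrp4 (-4.00), Sult1c1 (-3.69), Msx1 (-3.65), Il1f8 (-3.62), Gzmc (-3.62) and Il18 (-3.46). So were Slc15a1 (-3.42), Gsta1 (-3.17), Aldh1a2 (-3.08), Klk14 (-2.67), Msx2 (-2.60), Tm7sf2 (-2.57) and Col1a1 (-2.37).

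The basal epidermis list had opposite medians, with a median difference of 3.12.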

How the results depend on the processing

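With 1 array per group no replicate could be left out, and the precision rests on the spot error alone. No paired analysis was possible because each group has 1 array. Class sizes are given in the order higher in both, lower in both, higher in back and lower in tail, and lower in back and higher in tail, then differences of responses past 2-fold upwards and downwards. They were 406, 124, 111, 290, 1752 and 3230. Normexp background correction gave 527, 119, 37, 222, 1194 and 4553. Quantile normalization gave 287, 157, 174, 189, 2243 and 2328, and cyclic loess 268, 219, 172, 192, 2361 and 2278. Spike-in scaling, on 6 probes, gave 14, 2143, 542, 9, 6952 and 530. No filter on dim and saturated probes gave 680, 184, 135, 702, 2106 and 6870. A signal of at least 200 gave 195, 74, 46, 117, 1058 and 1439, and a 3-fold limit 110, 37, 18, 67, 808 and 1905. Leaving out the 2821 dimmest genes, chosen after seeing the data, gave 244, 112, 84, 162, 1417 and 1758. Scaling to detected probes, averaging probes, keeping outlier spots, the authors' values and a limit of 3 spot errors moved no count by over 1.5 times. The cause of the differences between scalings was not tested.

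Of 548 list medians recomputed, 77 turned sign, 30 of them with spike-in scaling. A turn is given singly where the median was past 2-fold. Those with spike-in scaling were activated keratinocyte (0.16), hair follicle stem cells (0.46), sebocytes and lipid synthesis (0.53), sterol synthesis (0.55), interferon response (0.48), collagens (0.60), T and NK cells (0.048), adipocyte (0.28), skeletal muscle (0.094). With no filter it was glycolysis and hypoxia (-0.46). Among smaller medians normexp turned 9, among them cytokines and chemokines (-2.04), neutrophil (-2.12), Hedgehog pathway (-2.58) and laminins and integrins (-1.23). Of 1907 recomputed differences of responses of named genes 115 turned sign, 23 of them past 2-fold before. With spike-in scaling these were Cat (0.24), Cd3d (0.048), Cidea (0.44), Elovl3 (0.59), Hoxc4 (0.56), Kctd12 (0.58), Lamc3 (0.42), Sdk2 (0.43). With normexp they were Cd83 (-1.12), Clec4d (-1.46), Clec4e (-1.36), Egr4 (-0.52), Inhba (-0.025), Ireb2 (-0.48), Kif11 (-0.63), Mmp1a (-0.51), Pf4 (-0.43), Ptger4 (-1.37), Rel (-0.73), Slc7a11 (-0.30), Stc2 (-0.38), Tgfb1 (-0.55), Tlr4 (-1.45).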

Other observations

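Detoxification genes and patterning genes had their own spread. Of 44 measured cytochromes P450, 4 were higher in both skins and none lower in both, beside 3.6% and 1.1% of all genes. Their difference of responses was past 2-fold upwards in 8 and downwards in 21, beside 15.5% and 28.6% of all genes. The median was -0.78. Cyp1a1, the enzyme induced through the aryl hydrocarbon receptor, was at 2.08 in back and 1.82 in tail, and Cyp2a5 at 5.82 and 0.0015. Of 23 Hox genes 1 was lower in both, beside 1.1% of all genes, and the median difference was -0.65. The endothelin Edn2 was at 1.22 and -3.93, and the endotoxin receptor Tlr4 at 3.00 and 1.73.

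Probes without a matched symbol numbered 16799, of which 8235 were measured on all 4 arrays. Of these 266 (3.23%) were higher in both skins, 95 (1.15%) lower in both, 58 (0.704%) higher in back and lower in tail, and 238 (2.89%) lower in back and higher in tail. Their median difference of responses was -0.45.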
